A study of Zostera marina with 23 samples.

Results

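The genes described here are those of eelgrass, Zostera marina, whose identifiers begin with ZosmaM. All 104 such identifiers among the 22733 of the deposited tables were taken by this prefix, which uses no measured value. Of these, 44 had a value of at least 10 in 2 or more of the 23 library columns and are described gene by gene. The libraries came from male flower (n = 7), root (n = 4), female flower at a late (n = 2) and an early (n = 3) time point of development, and leaf (n = 6). One further library has a title that calls it early female and a tissue label that calls it late, so it was placed in no group and is called the library with conflicting labels. All shoots came from the field and flowered in seawater tanks, in which the temperature went up from 5 to 15 °C and the daily light from 12 to 16 hours. By the labels no treatment differed between the groups. Genotype is not among the sample labels used here, so it cannot be said to be equal. Whether the replicates are separate plants is not in the labels, and p-values here rest only on the spread among these samples, part of which may be technical.

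Plant cells transcribe genes in the nucleus, in mitochondria and in plastids. Nuclear messenger RNA carries a long poly(A) tail that oligo(dT) beads, the capture step named in the labels, bind. In plant organelles a poly(A) tail mostly marks RNA for decay, so such libraries hold part of the organelle RNA. The sources used here do not say what the letter M in the identifiers stands for, and the files pair the identifiers with no product, sequence or position. Whether these are genes of the mitochondrial genome was therefore not tested, and no role is given to any single member.

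Values are scaled fragments, that is, sequenced fragments multiplied by 1 factor per library by the authors. Total depth was 5696800 to 13679075 fragments per library. A few libraries resembled another tissue as much as their own. Leaf replicate 1 had a median correlation across genes of 0.726 with the other leaf libraries and 0.854 with the late female libraries, and root replicate 2 had 0.796 with the other roots and 0.808 with leaf. Male replicate 5 (0.831) and leaf replicate 4 (0.834) had the next lowest medians and were closest to their own tissue. Column sums differed between libraries, so the ZosmaM genes were also measured as a share of each column's sum, which does not depend on the library factor. In whole tissue, fewer cells of a type and less RNA per cell cannot be told apart.

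ZosmaM genes took a small share of every library, and that share varied widely between replicates of 1 tissue. In male flower the share ran from 0.00586% through a median of 0.0283% to 0.2065% of the column sum. It was 0.00320%, 0.0115%, 0.00521% and 0.0173% in root replicates 0 to 3. Late female flower held 0.0201% in replicate 0 and 0.418% in replicate 1, and early female flower held 0.0142%, 0.0420% and 0.0990%. In leaf the share ran from 0.00791% through a median of 0.01003% to 0.0433%. Late female replicate 1 and male replicate 5 stood above all other grouped libraries, and the ranges of all groups overlapped at least 1 other group.

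The 7 differences in mean share between groups were each tested by an exact two-sided permutation test, with Benjamini-Hochberg adjustment over the 7. None passed. The mean was 0.119% ± 0.171 in female flower (SD, n = 5, both time points) and 0.0181% ± 0.0144 in leaf (n = 6), a ratio of 6.56 with an exact p of 0.0455 and an adjusted p of 0.318. All 5 female libraries lay above the leaf median, and 2 lay above every leaf library. Male flower held 0.0486% ± 0.0705 (n = 7), and the exact adjusted p was 0.407 in each of the other 6 comparisons. Root, at 0.00931% ± 0.00642 (n = 4), was lower than female flower with an exact p of 0.183, and 3 of 4 roots lay below every female library. For late against early female flower, at 0.219% ± 0.281 and 0.0517% ± 0.0432, the exact p was 0.40, and the smallest p that 2 against 3 libraries allow is 0.10. Without late female replicate 1 the late value lay below the early mean, by a difference of -0.0316 percentage points, and the difference of male and female flower turned from -0.0701 to 0.00476 percentage points.

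**Figure D1:**
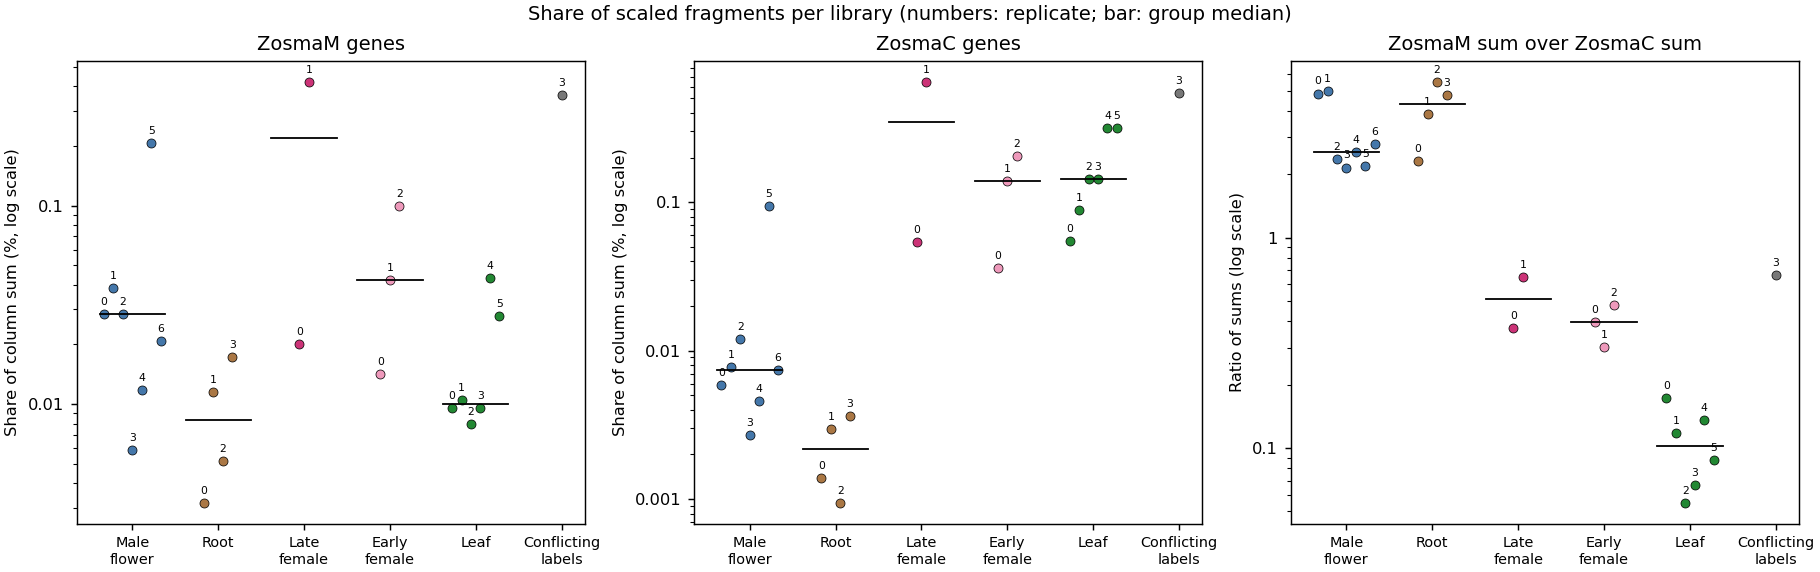
Share of each library's column sum held by ZosmaM genes (left) and by genes with the ZosmaC prefix (middle), and the ratio of the 2 sums (right), all on log axes, with 1 point per library and a bar at each group's median. Late female replicate 1 at 0.418% and male replicate 5 at 0.2065% stand highest of the grouped libraries on the left, while the ratio on the right lies at 2.16 or more in male flower and root, between 0.301 and 0.649 in female flower and at 0.173 or less in leaf.

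The ZosmaM share was set beside that of the 92 genes whose identifiers begin with ZosmaC. In each of the 5 groups the library with the highest ZosmaM share also had the highest ZosmaC share. The lowest library was the same too in male and early female flower, and not in root or leaf. Late female flower has 2 libraries, so there the lowest follows from the highest. The highest were male replicate 5, root replicate 3, late female replicate 1, early female replicate 2 and leaf replicate 4. The ZosmaM share differed 35.2-fold between the highest and the lowest male library, and the ZosmaC share differed 34.5-fold. Between the late female libraries these differences were 20.8-fold and 11.9-fold.

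The ZosmaM sum was 2.16 to 4.98 times the ZosmaC sum in male flower and 2.32 to 5.50 times in root. It was 0.372 and 0.649 times in late female flower, 0.301 to 0.480 times in early female flower, and 0.0549 to 0.173 times in leaf. Male flower and root overlapped in this ratio. Both lay above every female library, and every female library lay above every leaf library. This ratio was looked at after the shares were seen and was not tested. Depth, RNA quality and capture could differ between libraries as well, and their part in these shares was not tested.

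A pair of genes made up most of the ZosmaM sum in every library. ZosmaM1g00700 held 66.8% to 75.8% of it in male flower, 73.9% to 75.8% in root, 71.3% and 73.3% in late female flower, 68.8% to 71.5% in early female flower and 70.3% to 75.6% in leaf. ZosmaM1g00270 held 18.9% to 26.3% in male flower, 18.3% to 21.4% in root, 12.8% and 16.2% in late female flower, 12.2% to 15.4% in early female flower and 13.4% to 22.8% in leaf. Its part was thus larger in every male and root library than in any of the 5 grouped female libraries, while the library with conflicting labels had 21.0%.

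All other ZosmaM genes together held 6.54% ± 2.17 of the ZosmaM sum in male flower (SD, n = 7), 5.25% ± 0.935 in root (n = 4), 13.2% ± 1.02 in late female flower (n = 2), 16.0% ± 2.90 in early female flower (n = 3) and 8.31% ± 4.61 in leaf (n = 6). The 5 grouped female libraries, at 12.45% to 19.0%, lay above all male and root libraries, whose highest was 9.19%. Leaf replicates 1 and 4 had 16.3% and 10.3%, against 3.88% to 8.74% in the other leaf libraries, and these are the leaf libraries with the lowest correlation to their group. The makeup was not tested, because it was examined after the values were seen.

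**Figure D2:**
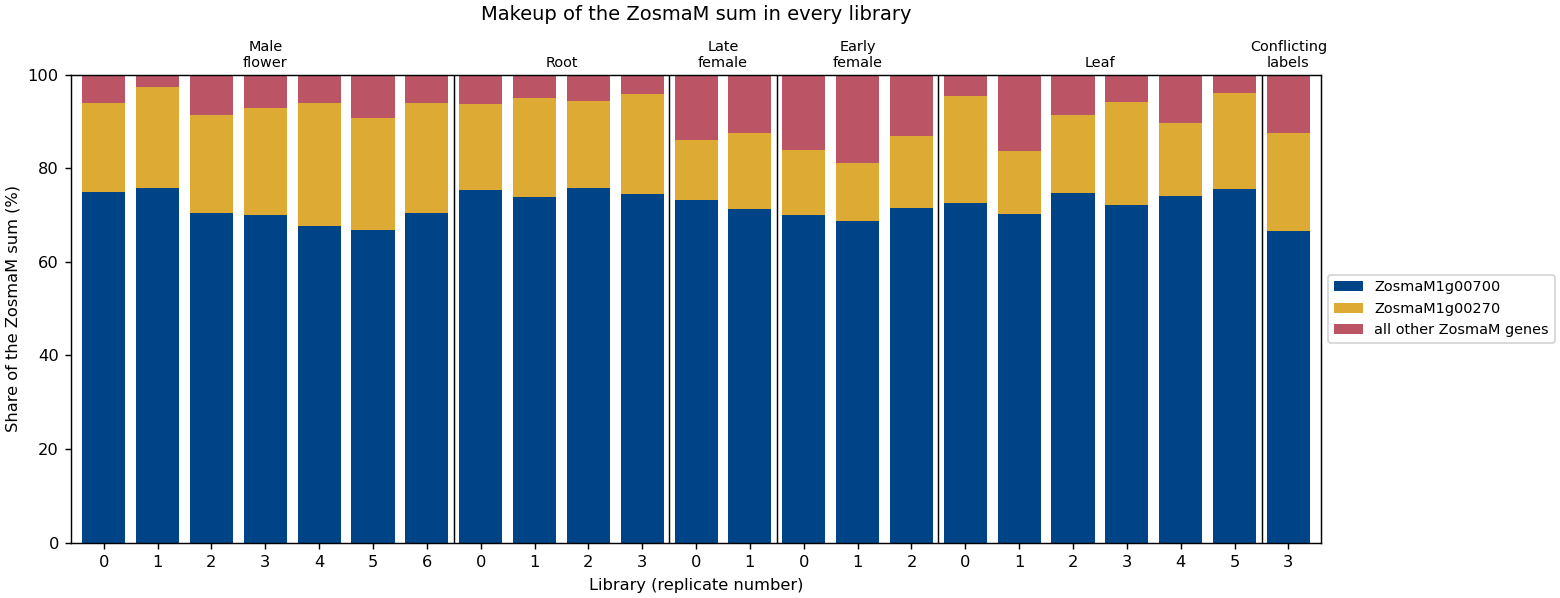
Share of the ZosmaM sum (%) taken by ZosmaM1g00700, by ZosmaM1g00270 and by all other ZosmaM genes in each library, with bars grouped by tissue and numbered by replicate. ZosmaM1g00700 holds 66.6% to 75.8% throughout, and the part of the other genes is 12.45% to 19.0% in the grouped female libraries and at most 9.19% in male flower and root.

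By scaled fragments ZosmaM1g00700 was the most abundant member in every library. It had a lowest value of 647, a median of 3346 and a highest value of 14972 scaled fragments in the 7 male libraries. Root replicates 0 to 3 had 214, 702, 314 and 1187. In late female flower it had 1012 in replicate 0 and 22920 in replicate 1, in early female flower 726, 2074 and 5115, and in leaf a lowest value of 582, a median of 776 and a highest value of 3600. All groups overlapped. Ranked among all identifiers of a library, this gene stood at place 14 in late female replicate 1, 62 in male replicate 5, 138 in early female replicate 2 and 7455.5 (a tie) in root replicate 0. In the limma fit over all genes with Benjamini-Hochberg adjustment it was higher in male flower than in root by 2.68 (log2, SE 0.867, adjusted p = 0.0121) and lower in root than in female flower, at -2.66 (SE 0.937, adjusted p = 0.0324), and it was not called in the other 5 comparisons. The difference of male flower and root was lost in 3 alternatives, at 1.72 to 2.29: without root replicate 0, without the 5 libraries taken as apart from earlier results (male 5, root 2, early female 0, leaf 1 and leaf 4), and with libraries scaled to equal totals. The difference of root and female flower was lost in 7, at -2.66 to -1.54. These were the fit of the compared groups alone, at an unchanged estimate, the fits without root replicate 0 or 2, late female replicate 1 or early female replicate 1 or 2, and the fit without both late female replicate 1 and male replicate 5.

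ZosmaM1g00270 had a similar spread over libraries at a lower level. The 7 male libraries had 213 at the lowest, 996 at the median and 5367 at the highest, and root replicates 0 to 3 had 51.9, 202, 76.9 and 341 scaled fragments. It stood at 177 and 5204 in late female flower, at 144, 368 and 1100 in early female flower, and at 111, 210.2 and 764 (lowest, median, highest) in leaf. It was higher in male flower than in leaf by 1.86 (log2, SE 0.792, limma adjusted p = 0.0461) and than in root by 2.94 (SE 0.892, adjusted p = 0.00818), although the groups overlapped. The difference from root was lost with equal totals, at 1.98. The difference from leaf was lost in 15 alternatives, at 1.18 to 1.89. It was lost without a filter at an unchanged estimate (limma adjusted p = 0.0515), with equal totals, after quantile normalization and when the conflicting-label library joined the early group. It was also lost without any 1 of male replicates 0, 1, 2, 5 and 6 or leaf replicates 0 to 3, without the 5 libraries taken as apart, and without both late female replicate 1 and male replicate 5.

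Per length the pair lay close together. Averaged over the 5 group means, ZosmaM1g00700 had 4.04 times the scaled fragments of ZosmaM1g00270 but 1.28 times its FPKM, a level per kilobase of gene. In FPKM, ZosmaM1g00700 had 102 ± 97.6 in male flower (SD, n = 7), 13.1 ± 9.58 in root (n = 4), 256 ± 333 in late female flower (n = 2), 56.2 ± 48.2 in early female flower (n = 3) and 30.1 ± 25.8 in leaf (n = 6). ZosmaM1g00270 had 106 ± 114, 11.5 ± 9.11, 182 ± 241, 35.5 ± 33.2 and 23.0 ± 17.8 FPKM in the same groups. In male replicates 3 to 6, and in no other library, ZosmaM1g00270 lay above ZosmaM1g00700 by FPKM. In male replicate 5 they had 344.5 and 295.3. The other 42 described genes had 0.291 to 5.46 FPKM, with a median of 1.20. By FPKM, ZosmaM1g00260 ranked 3 and ZosmaM1g00040 ranked 25 among the 44, against places 6 and 7 by scaled fragments.

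The other 42 genes rested on few fragments. Together they had 45 to 1147 fragments per male library, 27 to 78 per root library, 272 and 5412 in late female flower, 237 to 1418 in early female flower and 29 to 537 in leaf. At least 1 fragment was counted for 12 to 26 of the 44 genes in a root library, 23 to 44 in a male library, 42 to 44 in a female library and 15 to 42 in a leaf library. A gene at 0 in root is therefore not detectable at this depth, and 3 fragments correspond to 2.00 to 2.56 scaled fragments there. For genes with at least 3 fragments in the lower library, late female replicate 1 was 5.34 to 86.4 times replicate 0, with a median of 19.3 over 29 genes, and it was higher for all 44. Male replicate 5 was above the other 6 male libraries for all 44 genes, and leaf replicate 4 was above the other leaf libraries for 39.

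**Figure D3:**
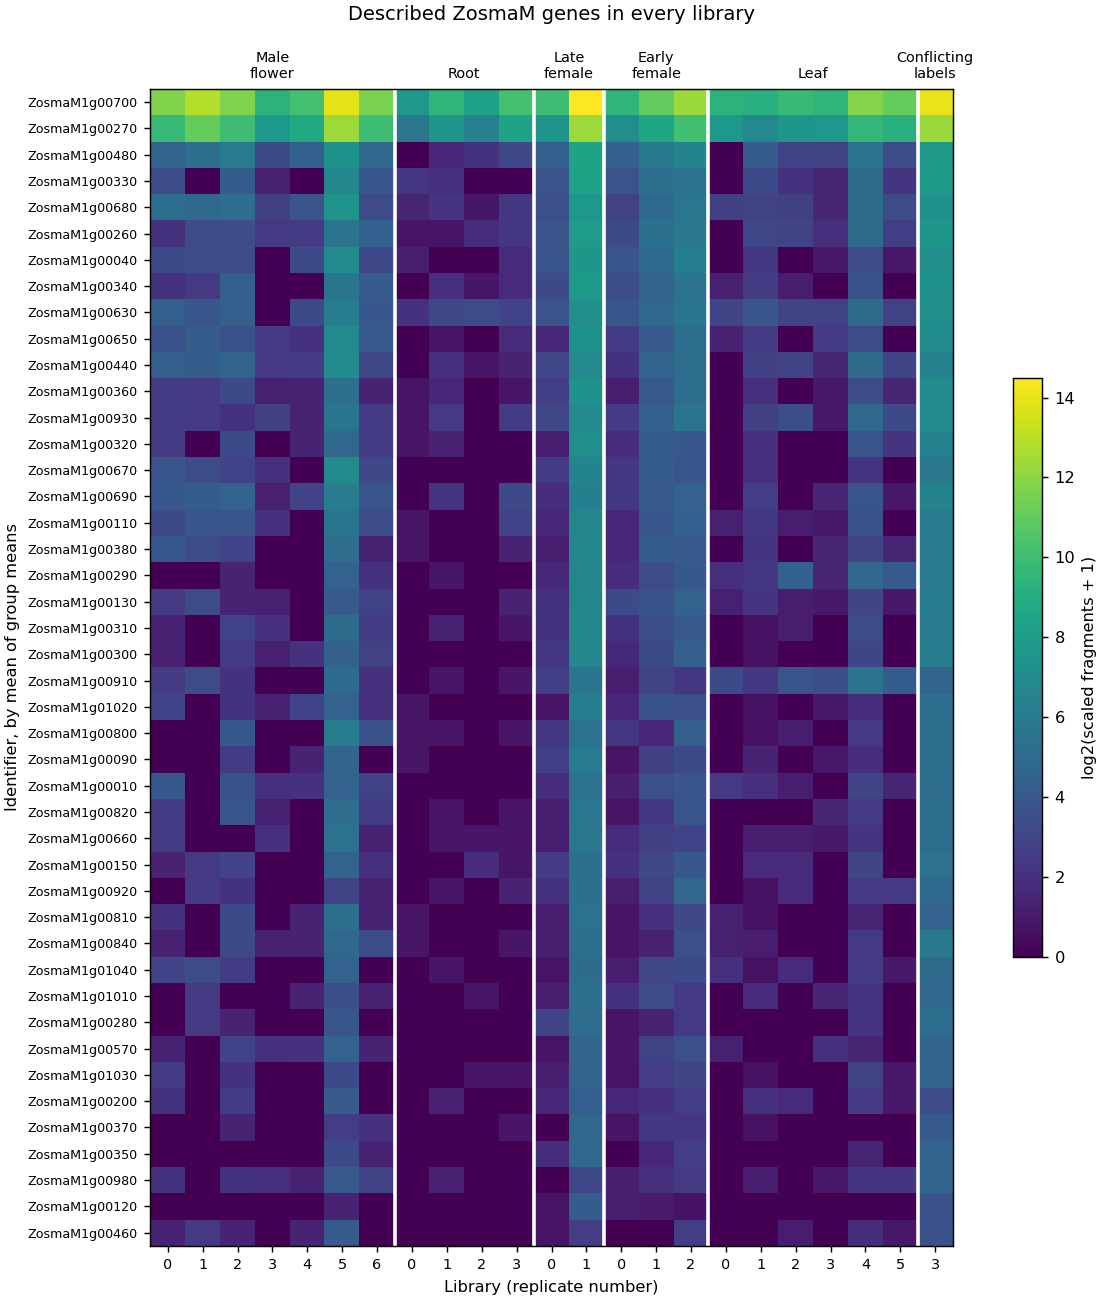
Level of the 44 described ZosmaM genes, as log2(scaled fragments + 1), in every library, with genes ordered from the highest mean over the 5 group means and libraries numbered by replicate. For all 44 genes the highest value lies in late female replicate 1 (32 genes), the library with conflicting labels (7) or male replicate 5 (5), and at least 1 fragment was counted for 12 to 26 genes in a root library and 15 to 42 in a leaf library.

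ZosmaM1g00480 ranked 3 among the members by mean scaled fragments. In male flower it had 8.69 at the lowest, 28.2 at the median and 172 at the highest, and in root 0, 2.24, 3.42 and 7.33 scaled fragments. It had 19.3 and 325 in late female flower, 21.1, 57.6 and 91.0 in early female flower, and 0, 7.93 and 42.3 (lowest, median, highest) in leaf. In scaled fragments every male library lay above every root library, and every female library lay above every root library. Column sums were 1.08e+07 to 2.57e+07 in male flower and 7.95e+06 to 9.20e+06 in root. Relative to these sums, male replicate 3 (6 of 10902635 fragments) lay below root replicate 3 (9 of 11296138), so male flower and root overlapped. Every female library still lay above every root library. Male flower exceeded root by 3.40 (log2, SE 0.945, limma adjusted p = 0.00444).

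ZosmaM1g00650 reached 10 only in flower libraries, and so entered the fit through them. Its male values were 3.27, 11.5 and 117 (lowest, median, highest), and its root values were 0, 0.747, 0 and 2.44. Late female flower had 2.00 and 173, early female flower 4.76, 16.8 and 37.0, and leaf 0, 3.03 and 9.004. The male and root libraries did not overlap in scaled fragments, but relative to the column sum male replicate 4 lay below root replicate 3. The fitted difference of male flower and root, given as a description, was 3.21 (log2, SE 1.00).

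ZosmaM1g00040 also reached 10 only in flower libraries and entered the fit through them. It had 12.7 and 199.7 scaled fragments in late female flower and 13.6, 32.5 and 74.7 in early female flower. In root it had 1.33, 0, 0 and 2.44, and in leaf 0 at the lowest, 0.952 at the median and 9.004 at the highest. In male flower it had 0, 8.23 and 124 in the same order. Every female library lay above every root and leaf library. The fitted differences, given as a description, were -4.63 for root and female flower (log2, SE 1.07) and 4.12 for female flower and leaf (SE 0.965).

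ZosmaM1g00330 did not overlap between root and female flower, and ZosmaM1g00670 did not overlap between female flower and leaf. ZosmaM1g00330 had 3.99, 2.99, 0 and 0 scaled fragments in root, against 12.0 and 338 in late and 12.2, 37.7 and 42.9 in early female flower. Outside flower libraries it reached 10 only in leaf replicate 4, so it needed flower libraries to enter the fit. The fitted difference of root and female flower, given as a description, was -4.36 (log2, SE 1.29), and the call was lost without late female replicate 1. ZosmaM1g00330 had 0, 9.88 and 104 in male flower and 0, 3.51 and 30.6 in leaf, as lowest, median and highest. ZosmaM1g00670 had 4.67 and 90.8 in late and 4.08, 17.8 and 13.0 in early female flower, and it was at 0 in 4 of 6 leaf libraries and at 2.90 and 3.60 in leaf replicates 1 and 4. It too reached 10 only in flower libraries, and the fitted difference of female flower and leaf, as a description, was 3.29 (log2, SE 0.920). ZosmaM1g00670 was at 0 in all 4 roots and had 0, 7.84 and 116 in male flower.

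The other genes among the 10 most abundant followed the same libraries. ZosmaM1g00680 had 5.79, 31.6 and 180.3 in male flower (lowest, median, highest) and 0.855 to 4.07 in root, with no overlap in scaled fragments. Relative to the column sum, its male replicate 3 lay below root replicates 1 and 3. ZosmaM1g00680 had 10.7 and 206 in late female flower, 6.12, 30.4 and 50.7 in early female flower, and 1.99, 6.02 and 34.2 in leaf. ZosmaM1g00260 had 3.29, 9.04 and 45.9 in male flower, 0.665 to 4.07 in root, 12.0 and 242 in late female flower, 8.17, 38.8 and 54.6 in early female flower, and 0, 6.11 and 31.5 in leaf. For both genes the root libraries lay below all female libraries.

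ZosmaM1g00340 and ZosmaM1g00630 completed the 10. ZosmaM1g00340 had 0, 4.52 and 49.3 in male flower, 0 to 2.99 in root, 8.002 and 233 in late female flower, 9.53, 24.1 and 44.8 in early female flower, and 0, 1.27 and 11.7 in leaf. ZosmaM1g00630 had 0, 14.1 and 68.0 in male flower and 3.33 to 9.40 in root. It had 12.0 and 143 in late female flower, 13.6, 27.2 and 49.4 in early female flower, and 5.98, 6.94 and 30.6 in leaf. Outside the pair of most abundant genes, ZosmaM1g00630 had the highest root mean, 6.68 ± 2.54 (SD, n = 4).

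Across all genes, 38 ZosmaM genes passed the filter of at least 10 in 2 of the 22 grouped libraries and were tested among 17423 genes. Calls needed 2-fold or more and an adjusted p below 0.05 (limma, Benjamini-Hochberg adjustment over all genes). Of the 38, 23 reached 10 only in flower libraries, 15 reached it in a leaf library and 2 in a root library. Of the 15, ZosmaM1g00110, ZosmaM1g00260, ZosmaM1g00320, ZosmaM1g00330, ZosmaM1g00340, ZosmaM1g00440, ZosmaM1g00680 and ZosmaM1g00690 reached it in leaf replicate 4 and in no other leaf library. These genes also needed a flower library to pass the filter. Genes that entered through flowers had to be higher there, so the counts below describe these genes and are no support for a direction. The comparisons also share libraries, and so are not independent of each other. The filter was applied again after leaving out a library. It then passed 30 ZosmaM genes without late female replicate 1, 31 without male replicate 5 and 37 without early female replicate 2.

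Female flower had 20 ZosmaM genes above leaf and 0 below, with a median log2 fold change of 2.24. Of all genes tested, 26.8% were higher and 19.1% lower, with a median of 0.10. The called ZosmaM genes had log2 fold changes of 2.05 to 4.12, and 2 of them, ZosmaM1g00040 and ZosmaM1g00670, showed no overlap, where 26.9% of all genes were called without overlap. Leaving out late female replicate 1 gave a count of 1, out of 30 tested, and leaving out late female replicate 0 gave 35, out of 38. It also moved with scaling, at 33 with libraries scaled to equal totals, which moved the median of all genes to 0.56, and at 9 after quantile normalization. The ZosmaM median stayed positive under both, at 2.66 and 1.48.

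Root had 29 ZosmaM genes below female flower and 0 above, with a median of -3.03, where 15.4% of all genes were lower, 16.7% higher and their median was -0.06. All 38 estimates were negative, and the called ones lay between -4.63 and -2.47. In 21 of the 29 the root libraries did not overlap the female ones, where 27.3% of all genes were called without overlap. Without late female replicate 1 the count was 6, out of 30 tested. The ZosmaM median was -3.44 with equal totals and -2.97 after quantile normalization.

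Male flower had 14 ZosmaM genes above root and 0 below, with a median of 1.76, where 25.9% of all genes were higher, 26% lower and their median was -0.05. They were ZosmaM1g00010, ZosmaM1g00040, ZosmaM1g00130, ZosmaM1g00270, ZosmaM1g00300, ZosmaM1g00440, ZosmaM1g00480, ZosmaM1g00570, ZosmaM1g00650, ZosmaM1g00670, ZosmaM1g00680, ZosmaM1g00690, ZosmaM1g00700 and ZosmaM1g01020, with log2 fold changes of 1.86 to 3.40. Of these, 4 showed no overlap between male flower and root (ZosmaM1g00440, ZosmaM1g00480, ZosmaM1g00650 and ZosmaM1g00680), where 36% of all genes were called without overlap. Overlap was judged on scaled fragments. Relative to the column sum, male replicate 3 or 4 lay below a root library for each of these 4 genes. The count of called genes was 8 without male replicate 5, root replicate 0 or root replicate 2, and 9 without root replicate 1. With equal totals, which moved the median of all genes to -0.95, 5 genes were higher and the ZosmaM median was 1.38.

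Male flower and leaf differed in 7 ZosmaM genes, 6 higher in male flower and 1 lower, with a median of 1.18. Of all genes, 31.7% were higher and 24.5% lower, with a median of 0.19. As shares of 38 both ZosmaM counts are below these. The higher genes were ZosmaM1g00040, ZosmaM1g00270, ZosmaM1g00480, ZosmaM1g00650, ZosmaM1g00670 and ZosmaM1g00690, with log2 fold changes of 1.86 to 2.45. The lower gene was ZosmaM1g00290, at -2.07. The groups overlapped for all 7, where 31.5% of all genes were called without overlap. The split turned with scaling: with equal totals 0 were higher and 2 lower, and after quantile normalization 1 was higher and 2 lower, while the ZosmaM median stayed positive at 0.77 and 0.24. Leaving out 1 library also moved the count. It was 4 without male replicate 0 or 2 or leaf replicate 3, and 3 without male replicate 5 or 6 or leaf replicate 5. It was 2 without leaf replicate 0, 1 without leaf replicate 2 and 11 without leaf replicate 4.

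Male flower had 6 ZosmaM genes below female flower and 0 above, where 26.2% of all genes were lower and 26% higher. As a share of 38 this count is below the background. The ZosmaM median was -1.31, and the median of all genes was -0.03. The genes were ZosmaM1g00090, ZosmaM1g00130, ZosmaM1g00280, ZosmaM1g00290, ZosmaM1g00920 and ZosmaM1g01010, with log2 fold changes from -1.69 to -2.43, and the groups overlapped for all 6, where 38.7% of all genes were called without overlap. With equal totals 20 were lower, while the median of all genes moved to -1.15 and that of ZosmaM to -2.06. The count was 0 without late female replicate 1 or early female replicate 2, 2 without male replicate 3, and 3 without male replicate 0 or 4 or early female replicate 1. It was 11 without early female replicate 0, 14 without male replicate 5 and 20 without late female replicate 0.

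Late and early female flower did not differ in any of the 38 genes in the limma test (0 called, 1 at an unadjusted p under 0.05), where 0.0746% of all genes were called and 4.39% had an unadjusted p under 0.05. All 38 estimates were positive, with a median of 0.94 and a median SE of 1.31. Late female replicate 1 was far above replicate 0 in these genes, so the estimates are the mean of a high and a low library.

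**Figure D4:**
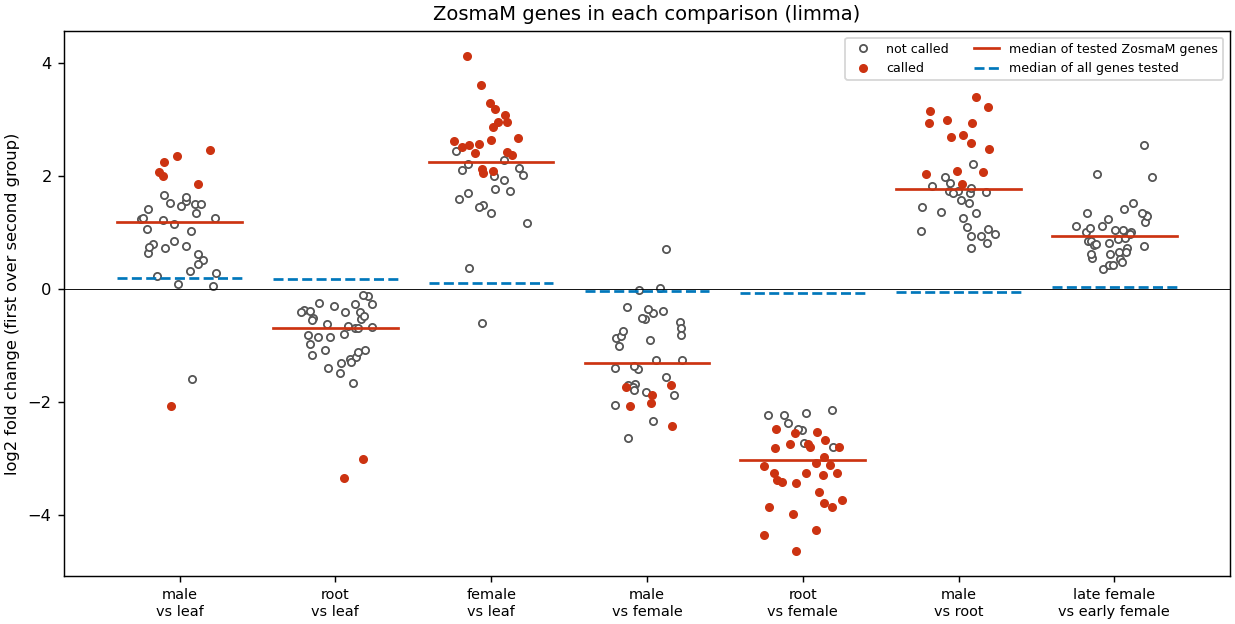
Log2 fold changes of the 38 tested ZosmaM genes (points, jittered sideways, filled where called) in the 7 comparisons, with the first-named group over the second, the median of these genes (solid line) and the median of all 17423 genes (dashed line). The ZosmaM median is highest in female flower against leaf (2.24) and lowest in root against female flower (-3.03), while the median of all genes lies between -0.06 and 0.19.

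Root and leaf differed in 2 ZosmaM genes, both lower in root, where 11.2% of all genes were lower and 17.6% higher, with a median of 0.18 over all genes and -0.70 over the ZosmaM genes. These were ZosmaM1g00910 and ZosmaM1g00290, both without overlap, where 14.7% of all genes were called without overlap. As a share of 38 this count is below the background, both for lower genes and for genes without overlap. ZosmaM1g00910 had 0, 0.747, 0 and 0.814 scaled fragments in root and 4.06 at the lowest, 11.2 at the median and 44.1 at the highest in leaf. It was lower in root by a log2 difference of -3.34 (SE 0.856, limma adjusted p = 0.00513). Over all libraries 2 fragments were counted in root and 103 in leaf, a ratio per fragment sequenced of 0.0289 with a 95% exact interval of 0.00346 to 0.107. The interval covers counting error only.

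ZosmaM1g00290 had 0, 0.747, 0 and 0 in root and 1.99, 10.2 and 26.1 (lowest, median, highest) in leaf. The log2 difference was -3.00 (SE 0.982, limma adjusted p = 0.0242), and 1 fragment in root stood against 77 in leaf, a ratio of 0.0193 with an interval of 4.83e-04 to 0.111. The count of 2 became 1 without root replicate 0, root replicate 3 or leaf replicate 2, with ZosmaM1g00290 losing its call each time, and 0 in the FPKM table.

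Both genes took a larger part of the less abundant ZosmaM fragments in leaf. With ZosmaM1g00700 and ZosmaM1g00270 set aside, ZosmaM1g00910 held 8.84% to 20% of the ZosmaM sum in 5 leaf libraries and 3.004% in leaf replicate 1. It held 0% to 3.57% in male flower, 0% to 1.59% in root, 2.78% and 1.22% in late female flower and 0.414% to 1.19% in early female flower. ZosmaM1g00290 held 3.004% to 21.6% in leaf, 0% to 1.19% in male flower, 0% to 1.59% in root, 1.04% and 2.34% in late female flower and 1.56% to 1.64% in early female flower. Every leaf library lay above all others for ZosmaM1g00290, and for ZosmaM1g00910 every leaf library but replicate 1 did. These shares rest on few fragments. ZosmaM1g00290 had 2 fragments each in leaf replicates 0 and 3, and neither gene had over 1 in any root library. The 42 less abundant described genes together had 29 and 58 fragments in these 2 leaf libraries and 27 to 78 in a root library. Single fragments therefore weigh heavily on these shares. This measure was chosen after the values were seen and was not tested.

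In scaled fragments the order differed between libraries. ZosmaM1g00910 had its highest mean in late female flower, 27.0 ± 30.6 (SD, n = 2), against 16.2 ± 14.4 in leaf (n = 6), but the late female mean rests on 48.6 in replicate 1, while replicate 0 had 5.33. Its median over all 5 female libraries was 5.33, below the leaf median of 11.2. ZosmaM1g00290 had 93.7 in late female replicate 1 and 2.00 in replicate 0. In early female flower ZosmaM1g00910 had 1.36, 6.81 and 3.90, and ZosmaM1g00290 had 2.72, 8.91 and 14.9. The female and leaf libraries overlapped for both genes. In male flower the medians were 3.27 for ZosmaM1g00910 and 0 for ZosmaM1g00290, with highest values of 32.3 and 22.1 in replicate 5.

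**Figure D5:**
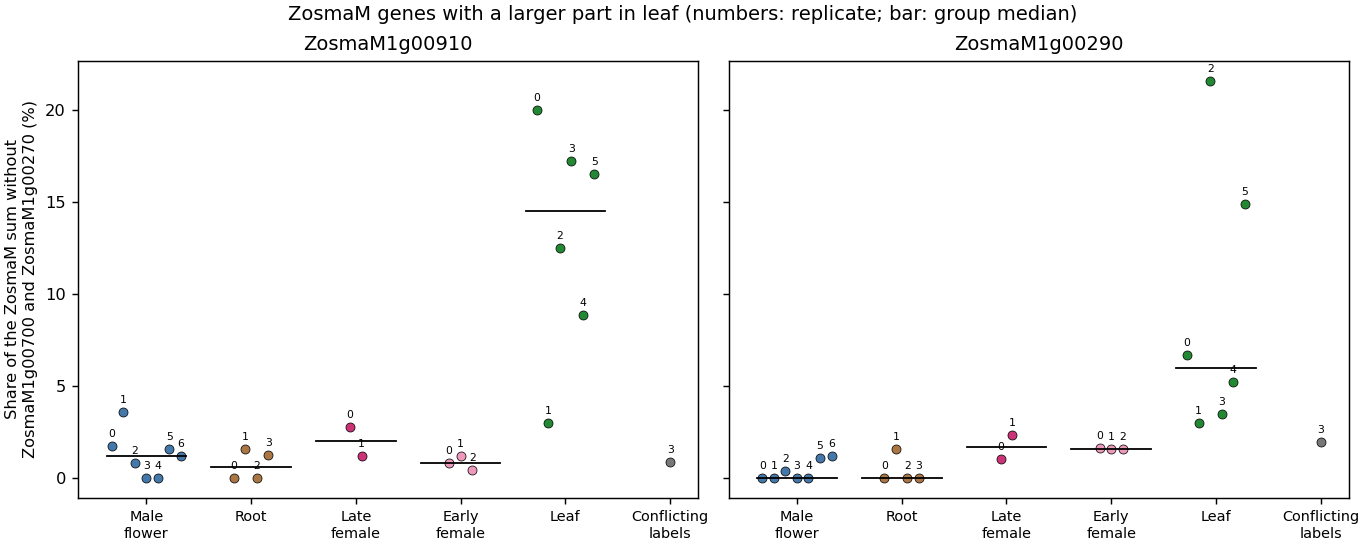
Share (%) of the ZosmaM sum without ZosmaM1g00700 and ZosmaM1g00270 that ZosmaM1g00910 (left) and ZosmaM1g00290 (right) held in each library, with a bar at each group's median. Leaf libraries reach 20% and 21.6%, and no library of another tissue exceeds 3.57% and 2.34%. In leaf replicates 0 and 3 the share of ZosmaM1g00290 rests on 2 fragments each.

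The remaining 60 ZosmaM identifiers fell short of the threshold. Of these, 24 were at 0 in all 23 libraries and 36 had between 1 and 51 fragments over all libraries. Together the 60 held at most 0.772% of the ZosmaM sum in a library. Just inside the threshold lay ZosmaM1g00120, with second highest and highest values of 11.1 and 18.2, and ZosmaM1g00460, with 11.7 and 17.0. Just outside lay ZosmaM1g00080, with 7.61 and 12.3, and ZosmaM1g00170, with 6.44 and 7.26. Of the 44 described genes, 6 reached the threshold only with the library of conflicting labels and entered no test.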

How the data were processed

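Messenger RNA of 23 eelgrass samples was isolated on oligo(dT) beads and read from both ends, per the labels' protocols. TopHat2 2.0.12, Cuffnorm 2.2.1 and Cuffdiff 2.2.1 are named in the submitters' processing notes, without role or order. For genome build, annotation, strand use and reads shared between near-identical copies, the sources used here give nothing. The table deposited by the authors as counts holds a scaled signal: 99.8% to 100.0% of non-zero values up to 20 steps came to whole multiples, to within 0.01, of a library's own step (0.524 to 4.52), which gave depth and fragment counts. Because residues close to 0 remained, tests made for raw counts were not run. The FPKM table deposited by the authors served per-length levels and an alternative.

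The fit across all genes took log2(value + 1) and used limma 3.58.1 (R 4.3.3; 1 model, 5 groups, trend and robust settings), with female flower as the mean of both stage means; in share tests it is the mean of 5 libraries. Fold changes are on this scale, which understates changes of low genes. Shares were tested with exact permutations in Python 3.11.15. The steps were tested on simulated data. Replicates differed by more than sampling noise (smallest chi-square per degree of freedom 17.7). Members, groups and lists were chosen with earlier results of these data known. Named with values per library are the 10 genes of highest mean over the group means and, per comparison and direction, the 2 called genes of largest fold without overlap between groups. Product names were not given, so tissue labels were not checked against markers.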

Additional observations from a re-analysis of the deposited data

Results flagged for a closer look

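Male replicate 5 stood far from the other 6 male libraries in the ZosmaM share, where its gap to the next library was 0.838 of the whole male range. The same library stood apart in 11 of the named genes, with gaps of 0.625 for ZosmaM1g00270, 0.672 for ZosmaM1g00480, 0.827 for ZosmaM1g00330, 0.826 for ZosmaM1g00680, 0.921 for ZosmaM1g00040, 0.602 for ZosmaM1g00340, 0.71 for ZosmaM1g00630, 0.87 for ZosmaM1g00650, 0.72 for ZosmaM1g00910, 0.858 for ZosmaM1g00290 and 0.886 for ZosmaM1g00670. Leaf replicate 4 stood apart from the other leaf libraries in 5 genes, with gaps of 0.716 for ZosmaM1g00330, 0.781 for ZosmaM1g00680, 0.761 for ZosmaM1g00260, 0.701 for ZosmaM1g00630 and 0.649 for ZosmaM1g00910. Root replicate 1 was the only root with a fragment of ZosmaM1g00290, a gap of 1 that rests on a single fragment. In all, 18 of 42 sets of libraries were picked out by this gap. The limits used pick about 1 in 20 by chance only where values are normally distributed. These values are skewed and hold many zeros, so the number to be picked by chance is not known. A set at 0 throughout, such as ZosmaM1g00670 in root, could not be picked. The genes also share the libraries and so are not independent. The library with conflicting labels, which entered no comparison, held 0.361% of its column sum in ZosmaM genes, above the 2.6e-05% that 3 fragments make there.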

How the results depend on the processing

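Low fragment numbers and library-to-library spread limit these results. The differences in share passed the test neither as reported nor under any alternative. The difference of late and early female flower was -0.03163 percentage points without late female replicate 1, also with male replicate 5 left out (chosen after seeing the data). Leaving out single libraries gave share differences of 0.00419 to 0.0376 for male flower against leaf, -0.0114 to -0.00373 for root against leaf, 0.0258 to 0.127 for female flower against leaf, -0.0964 to 0.00476 for male against female flower, -0.136 to -0.0345 for root against female flower, 0.0130 to 0.0464 for male flower against root and -0.0316 to 0.366 for late against early female flower. Called ZosmaM genes then numbered 1 to 11 for male flower against leaf (7 as reported) and 1 to 2 for root against leaf (2). They numbered 1 to 35 for female flower against leaf (20) and 0 to 20 for male against female flower (6). For root against female flower they numbered 6 to 38 (29), for male flower against root 8 to 15 (14) and for late against early 0. Fewer than 38 genes were tested without late female replicate 1 (30), male replicate 5 (31) or early female replicate 2 (37).

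In the following, the counts of called genes that moved by over 1.5 times are given by comparison, higher and lower genes together. The cause was not tested. Some alternatives also changed how many ZosmaM genes were tested, against 38 as reported. The number was 12 with a filter at 50, 78 without a filter and 44 with the library of conflicting labels added. It was 31 without the 5 libraries taken as apart and 25 without late female replicate 1 and male replicate 5. Counts from these alternatives are therefore out of unlike numbers. A pseudocount of 10 gave 2 in male flower against leaf, 1 in root against leaf and 4 in male flower against root. Without a filter 11 of 78 genes tested were called in male against female flower, where the reported fit had 6 of 38. With the filter at 50, root against leaf and male against female flower had 0, and female flower against leaf had 7. Both root against female flower and male flower against root had 9. Equal totals gave 33 in female flower against leaf and 20 in male against female flower. They gave 5 in male flower against root and 2 in male flower against leaf. Quantile normalization gave 3 in male flower against leaf (1 higher, 2 lower), 5 in root against leaf (all lower) and 9 in female flower against leaf (all higher). The FPKM table gave 13 in female flower against leaf and 6 in male flower against root. It gave 2 each in male flower against leaf and against female flower, and 0 in root against leaf. With the compared groups fitted alone 1 gene was called in male against female flower. Adding the library of conflicting labels to the early or the late group gave 36 in female flower against leaf in either case. In male against female flower it gave 17 as early and 19 as late. The 5 libraries taken as apart from earlier results were male 5, root 2, early female 0, leaf 1 and leaf 4. Without them, 17 were called in male against female flower and 7 in male flower against root. Late female replicate 1 and male replicate 5 were chosen after seeing the data. Without both, female flower against leaf had 2, male against female flower 0 and root against female flower 6.

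Whether the replicate numbers pair the samples was not tested. Of 31 same-numbered pairs of libraries, 11 had a correlation of deviations over 0.1 (median 0.028). Of 154 pairs with unlike numbers, 36 did (median -0.004). Only 4 of 22 libraries correlated best with their own number. With the replicate number as a block, 7 genes were called for male flower against root, and no other count moved by over 1.5 times. Fold changes of single named genes kept their direction under every alternative, with 37 of 280 losing the call. The planned count-based tests and their size-factor scaling were not run, because the values are not all whole multiples of 1 fragment.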

Other observations

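The library with conflicting labels carried high ZosmaM values. ZosmaM1g00700 had 16315 scaled fragments and place 17 among its identifiers, and ZosmaM1g00270 had 5136. ZosmaM1g00270 held 21.0% of its ZosmaM sum, above the 12.2% to 16.2% of the 5 female libraries with a group. The genes outside this pair held 12.4%, just below the 12.45% to 19.0% of those libraries. The ZosmaM sum was 0.667 times the ZosmaC sum, against 0.301 to 0.649 times in the grouped female libraries. ZosmaM1g00980 and ZosmaM1g00840, chosen after their values were seen, were higher in this library, at 23.4 and 57.4, than in late female replicate 1, at 7.99 and 36.3.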
